A study of Mus musculus with 5 samples.

Results

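The genes described here are 10 that neurons of many kinds switch on as they leave the cell cycle and mature. They were taken by symbol from a table of 24594 genes, and all 10 were found: Tubb3, Dcx, Map2, Stmn2, Elavl3, Elavl4, Rbfox3, Celf4, Nsg1 and Nsg2. Messenger RNA was sequenced from mouse retina in 5 libraries, 2 labelled control and 3 labelled Zfp292-OE. Per the labels, newborn pups (postnatal day 0) were electroporated in vivo with a plasmid in which the CAG promoter, active in most cell types, drove either green fluorescent protein (GFP, control) or Zfp292, which encodes a large nuclear zinc finger protein. Retinas were taken 4 days later, and GFP-positive cells, called retinal progenitor cells (RPC) in the labels, were collected by fluorescence-activated sorting. The sources used here do not say how cells given the Zfp292 plasmid came to carry GFP, which strain or sex the pups were, or whether each library had its own animals. A p-value here therefore reflects the spread among these 5 libraries alone, which may be technical.

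Neurons stabilise their microtubules as axons and dendrites grow, using a neuronal beta-tubulin (Tubb3) and proteins that bind microtubules or tubulin (Dcx, Map2, Stmn2). A second layer of the neuronal programme lies in RNA: Elavl proteins bind U-rich messages and steady them or change their splicing, Rbfox proteins set the inclusion of neuronal exons, and Celf proteins act in splicing and translation. Nsg1 and Nsg2 are small membrane proteins of neuronal endosomes that take part in receptor recycling. In the newborn retina, progenitors still divide while ganglion, amacrine, horizontal and cone cells have been born and rods and bipolar cells are being made.

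Values are normalised read counts, that is, reads per gene divided by 1 factor per library. Gene-assigned reads ranged from 103096224 to 137683716 per library. Zfp292 itself averaged 14022 ± 1038 (SD, n = 2) under the control label and 14454 ± 1179 (SD, n = 3) under the Zfp292-OE label, with a log2 fold change of 0.04 (adjusted p = 0.87 in limma), a sign that turned with the scaling. Every direction below is therefore that of the labels. Genes called changed are those with a limma adjusted p below 0.05 over 16316 tested genes, and a log2 fold change is the mean of log2(value + 1) in the libraries labelled Zfp292-OE minus that in control.

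Of the 10 genes, 2 fell with the Zfp292-OE label, 0 rose and 8 did not pass the test. The splicing regulator Celf4 fell to 52.2% of its control mean and the dendritic microtubule protein Map2 to 61.9%. Over all tested genes, 17.4% were called, 7.38% lower and 10% higher. For 5 genes (Map2, Elavl3, Rbfox3, Celf4 and Nsg2) each labelled library lay below both controls, a pattern shown by 25.7% of all tested genes. None lay above both controls, against 24.3% of tested genes, so 5 of 10 were apart in either direction beside 49.9% of all tested genes. The other 5, among them the widely used neuronal markers Tubb3, Dcx and Stmn2, had overlapping groups. The median log2 fold change of the 10 was −0.41, against −0.06 over all tested genes. A count of 0 higher was also given by edgeR and DESeq2, and no gene of the 10 with a positive value had an unadjusted p below 0.05 in limma. In bulk RNA, fewer cells of a type and less RNA per cell cannot be told apart.

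**Figure D1:**
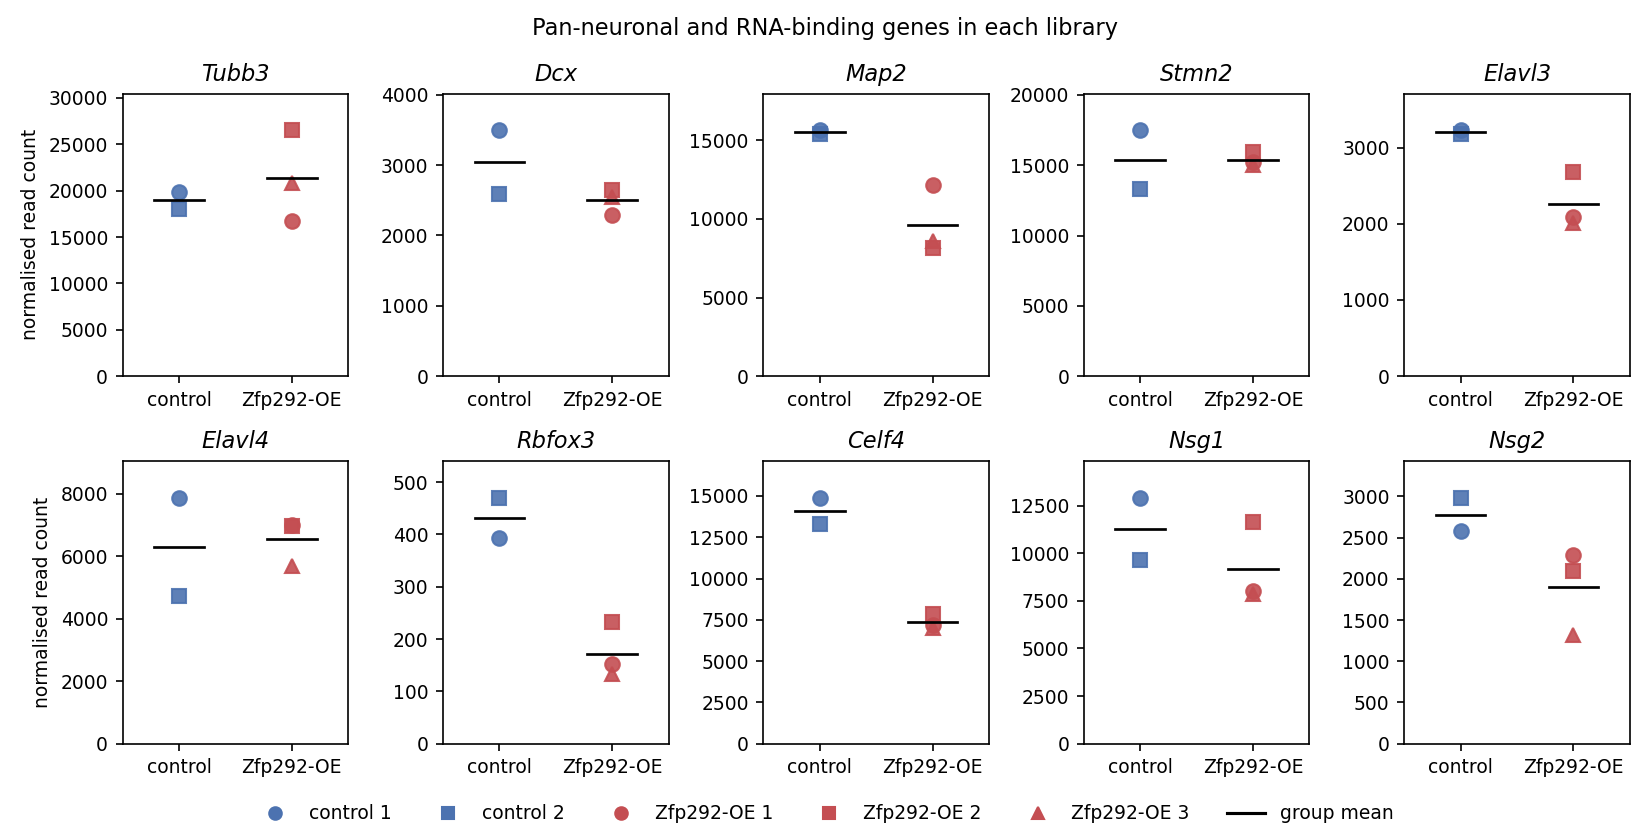
Normalised read count (y axis, from 0) of each of the 10 genes in the 2 control libraries and the 3 libraries labelled Zfp292-OE, with a bar at each group mean. Celf4, Map2, Rbfox3, Elavl3 and Nsg2 have all 3 labelled libraries below both controls, while Tubb3, Stmn2, Elavl4, Dcx and Nsg1 overlap.

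The 4 cytoskeletal genes did not move as one. Map2 (Entrez 17756, GRCm38 chr1:66175202-66442583), which encodes a protein that bundles microtubules in dendrites, had normalised read counts of 15625 and 15417 in control libraries 1 and 2 and of 12146, 8117 and 8577 in labelled libraries 1, 2 and 3. Both controls were close together, and labelled library 1 was the nearest to them. Its means were 15521 ± 148 (SD, n = 2) and 9613 ± 2205 (SD, n = 3), which limma put at −0.71 on the log2 scale (SE 0.19, adjusted p = 0.029, and 0.034 in edgeR). That call was lost without control library 1 (0.18), control library 2 (0.23), labelled library 2 (0.083) or labelled library 3 (0.071).

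Tubb3 (Entrez 22152, chr8:123411553-123422015) had 19877 and 18047 in control and 16689, 26501 and 20813 in the labelled libraries. This neuronal beta-tubulin spanned a wider range within the labelled group than between the groups, with library 2 highest and library 1 lowest of all 5. Its log2 fold change was 0.15, with a 95% interval from −0.28 to 0.57 (adjusted p = 0.63 in limma). The sign was negative under equal library totals and quantile normalization.

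Stmn2 (Entrez 20257, chr3:8509527-8561604), which encodes a tubulin-binding protein of growth cones, had 17478 and 13333 in control and 15227, 15943 and 15001 in the labelled libraries. All 3 labelled values lay between the controls, and the group means nearly coincided, at 15406 ± 2931 (SD, n = 2) for control and 15391 ± 492 (SD, n = 3). The log2 fold change of 0.01 had a 95% interval from −0.34 to 0.36 (adjusted p = 0.97 in limma), and its sign was negative under equal library totals and in edgeR. Dcx (Entrez 13193, chrX:143855842-143933396), the microtubule protein of migrating young neurons, had 3493 and 2588 in control and 2293, 2643 and 2553 in the labelled libraries. Its groups overlapped through control library 2, and the log2 fold change of −0.27 did not pass (adjusted p = 0.40 in limma, 95% interval −0.74 to 0.20).

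Among the RNA-binding genes, Celf4 had the smallest p and Rbfox3 the largest fold. Celf4 (Entrez 108013, chr18:25477620-25754520) had 14886 and 13321 in control and 7196, 7868 and 7017 in the labelled libraries. The labelled libraries lay close together and well under both controls, at means of 14104 ± 1107 (SD, n = 2) and 7360 ± 448 (SD, n = 3). On the log2 scale Celf4 differed by −0.94 (SE 0.15), with an adjusted p of 0.0030 in limma (0.0044 in edgeR). It held its call without any 1 of the labelled libraries (0.0069 to 0.014), and lost it without control library 1 (0.059) or control library 2 (0.11).

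Rbfox3 (Entrez 52897, chr11:118489760-118911597), known by its protein name NeuN and used as a marker of mature neurons, was the lowest of the 10. It had 393 and 470 in control and 152, 232 and 133 in the labelled libraries, with no overlap. The log2 fold change of −1.36 (SE 0.48) was the largest of the 10 in size but did not pass in limma (adjusted p = 0.082, 0.084 in edgeR). DESeq2 called it (0.042). Behind these values stand 971 reads in control, summed over libraries, and 507 in the labelled group.

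Elavl3 and Elavl4 encode the neuronal proteins HuC and HuD. Elavl3 (Entrez 15571, chr9:22015005-22052146) had 3227 and 3178 in control and 2090, 2682 and 2012 in the labelled libraries. The groups were apart, with labelled library 2 nearest to the controls, and the log2 fold change of −0.51 (SE 0.21) had an adjusted p of 0.12 in limma. It passed under equal library totals (0.042), which lowered the median of all tested genes to −0.27. Elavl4 (Entrez 15572, chr4:110203737-110351939) had 7869 and 4729 in control and 6991, 6958 and 5698 in the labelled libraries. The controls bracketed all 3 labelled values, and the log2 fold change was 0.10 (95% interval −0.40 to 0.60, adjusted p = 0.80 in limma). Its value was 0.46 without control library 1 and −0.27 without control library 2.

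Neither gene of the endosomal pair passed the test. Nsg2 (Entrez 18197, chr11:31999704-32059211) had 2578 and 2983 in control and 2285, 2096 and 1314 in the labelled libraries, all 3 under both controls and library 3 lowest. Its log2 fold change was −0.59 (SE 0.27, adjusted p = 0.16 in limma). Nsg1 (Entrez 18196, chr5:38137193-38159743) had 12912 and 9643 in control and 8020, 11620 and 7847 in the labelled libraries. Labelled library 2 lay between the controls and the other 2 under them, and the value of −0.31 did not pass (adjusted p = 0.34 in limma). Nsg1 is also the least certain of the 10. Of its transcript sequence cut into runs of 50 bases, 15.6% stood also in transcripts of Stx18, a gene on the opposite strand named after its values were seen, at 4647 and 4372 in control and 6452, 5729 and 6228 in the labelled libraries (adjusted p = 0.084 in limma). Whether counting used strand is not given in the sources used here, so reads of these genes could have been mixed. In the other 9 genes at most 3.13% of such runs were shared (Elavl3), and 0% for Tubb3, Elavl4, Rbfox3 and Nsg2. The exons of Tubb3 and part of those of Elavl3 lie, however, within the span of another annotated gene on the same strand.

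Levels between genes were compared per kilobase of merged exon (GENCODE release M21, GRCm38). Tubb3 was highest in control at 10150 normalised reads per kilobase, followed by Stmn2 at 7432, Nsg1 at 4219, Celf4 at 3378, Map2 at 1525 and Elavl4 at 1320. Nsg2 at 669, Elavl3 at 465, Dcx at 329 and Rbfox3 at 87.7 were lower. The control libraries overlapped only between Map2 (1530 and 1510) and Elavl4 (1650 and 991), so these neighbours did not differ beyond their spread. In the labelled libraries Map2 (944) stood below Elavl4 (1372) in the order, and in each labelled library Map2 was the lower of the pair. Nsg2 in labelled library 3 (316) came within the range of Elavl3 (292 to 389).

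The annotated start regions differ in make-up, and 4 are shown because they cover 1 gene that fell (Map2), 2 whose groups were apart without a call (Elavl3 and Nsg2) and 1 whose groups overlapped (Tubb3). Each is the 300 bases from 250 before to 50 after a start in RefSeq (GRCm38.p6), 5′ to 3′ on the gene's strand. Capitals mark E-boxes of 3 kinds, CAGCTG on either strand, also CAGATG on either strand, also CAGGTG on either strand, the letters bound by many basic helix-loop-helix factors.
Map2, chr1:66175079-66175378, + strand: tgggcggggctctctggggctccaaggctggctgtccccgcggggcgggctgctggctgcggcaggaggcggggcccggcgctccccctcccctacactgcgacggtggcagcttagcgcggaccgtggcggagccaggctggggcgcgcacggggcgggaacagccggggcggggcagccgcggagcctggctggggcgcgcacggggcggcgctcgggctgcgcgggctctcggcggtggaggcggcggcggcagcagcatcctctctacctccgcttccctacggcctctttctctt
Tubb3, chr8:123411303-123411602, + strand: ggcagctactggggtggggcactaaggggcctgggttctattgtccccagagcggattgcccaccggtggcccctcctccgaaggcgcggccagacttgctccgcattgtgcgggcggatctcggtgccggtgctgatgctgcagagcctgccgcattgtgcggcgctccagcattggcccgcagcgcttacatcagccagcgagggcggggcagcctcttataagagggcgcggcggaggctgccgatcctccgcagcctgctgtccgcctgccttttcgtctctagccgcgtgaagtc
Elavl3, chr9:22051974-22052273, - strand: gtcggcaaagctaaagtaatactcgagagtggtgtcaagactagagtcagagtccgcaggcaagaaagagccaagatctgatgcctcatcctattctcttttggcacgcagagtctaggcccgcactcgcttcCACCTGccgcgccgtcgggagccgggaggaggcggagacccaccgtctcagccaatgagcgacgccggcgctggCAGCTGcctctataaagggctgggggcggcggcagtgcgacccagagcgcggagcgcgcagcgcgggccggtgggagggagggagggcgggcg
Nsg2, chr11:32000169-32000468, + strand: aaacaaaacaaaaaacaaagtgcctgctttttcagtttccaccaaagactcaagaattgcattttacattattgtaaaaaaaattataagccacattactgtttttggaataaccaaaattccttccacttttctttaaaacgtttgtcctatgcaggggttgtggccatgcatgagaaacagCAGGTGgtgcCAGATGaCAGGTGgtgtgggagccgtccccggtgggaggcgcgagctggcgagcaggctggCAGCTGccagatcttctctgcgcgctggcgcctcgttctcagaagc
Of all 32851 start regions of this length, 16.3% hold CAGCTG, 17.15% hold CAGATG or its complement and 20.21% hold CAGGTG or its complement. Map2 and Tubb3 hold none of these in the window, Elavl3 holds 1 CAGCTG and 1 CAGGTG, and Nsg2 holds 1 CAGCTG, 1 CAGATG and 2 CAGGTG. A second Nsg2 start (chr11:32000450-32000749) holds 0 of them, and Elavl4, whose groups overlapped, holds 1 of each kind at 2 of its 4 starts, and so no pattern of motifs with the values is read from these windows. The G and C content is 77.7% for Map2, 67.3% for Tubb3, 65.3% for Elavl3 and 47.0% for Nsg2, against a median of 52.7% over all start regions. Start regions of 7 of the 10 genes were searched. Celf4 was left out of the search by rule, and Stmn2 and Nsg1 had no matched start region. The RE1 element, which the neuronal repressor REST binds, matched none of the 7 genes and 0.06% of all start regions. A match is a description of letters and not a bound site.

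Related genes of the same families did not all move alike. Among tubulins, Tubb2a fell by 0.96 on the log2 scale, its control mean being 31199 ± 8011 (SD, n = 2) and its labelled mean 15866 ± 1569 (SD, n = 3) (adjusted p = 0.0068 in limma). Tubb2b (−0.83) and Tubb4a (−1.27) fell as well, while Tubb3 did not pass. Tubb2a and Tubb2b are close copies, and how the counting divided reads between them was not measured. Mapt, the axonal protein tau, fell by 1.06 on the log2 scale (adjusted p = 0.0037 in limma), alongside Map2. The microtubule-associated Map1a (0.23) and Map1b (−0.07) had overlapping groups and did not pass (adjusted p = 0.67 and 0.80 in limma). Nor did Dclk1, a relative of Dcx (0.01, adjusted p = 0.98 in limma), whose groups also overlapped.

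Among stathmins, Stmn1 rose and Stmn3 fell. Stmn1, a tubulin-binding protein abundant in dividing cells, averaged 132391 ± 6369 (SD, n = 2) in control and 230833 ± 38616 (SD, n = 3) when labelled Zfp292-OE, up 0.79 on the log2 scale (adjusted p = 0.012 in limma). Its values were 136895 and 127888 in control and 234820, 267301 and 190379 in the labelled libraries, all higher. Stmn3, a neuronal stathmin, fell by 0.51 on the log2 scale (adjusted p = 0.041 in limma). That call was lost when either control was left out, and without labelled library 1 (0.11) or 3 (0.096). Stmn4 had −0.46 and did not pass.

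In the Elavl family the broadly expressed Elavl1 (HuR) rose by 0.65 on the log2 scale, with control at 24888 ± 6434 (SD, n = 2) and the labelled libraries at 38357 ± 2354 (SD, n = 3), an adjusted p of 0.029 in limma and 0.051 in edgeR. It lost its call also under equal library totals (0.085), when either control was left out, and without labelled library 1 (0.080) or 3 (0.067). Elavl2 had −0.27 and overlapping groups, and 0.47 without control library 1. In the Celf family Celf3, a neuronal paralog of Celf4, fell further than Celf4, from 6116 ± 300.5 (SD, n = 2) to 2186 ± 223 (SD, n = 3), with values of 6329 and 5904 in control and 1929, 2303 and 2327 in the labelled libraries. Its log2 fold change was −1.49 (SE 0.19, adjusted p = 0.0010 in limma), and the difference between these paralogs was not tested. Celf5 (−1.04) and Celf6 (−1.15) had labelled libraries under both controls but did not pass. The broadly expressed Celf1 (−0.43, adjusted p = 0.10) and Celf2 (0.10, −0.12 under equal library totals, adjusted p = 0.67) did not pass either. Rbfox1 had −0.89 (adjusted p = 0.15) and Rbfox2 0.10 (−0.11 under equal library totals, adjusted p = 0.82), with overlapping groups for Rbfox2 only. Caly, the third gene of the Nsg family, fell by 1.06 on the log2 scale (adjusted p = 0.015 in limma), from 4466 and 3885 in control to 2317, 2234 and 1524.

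**Figure D2:**
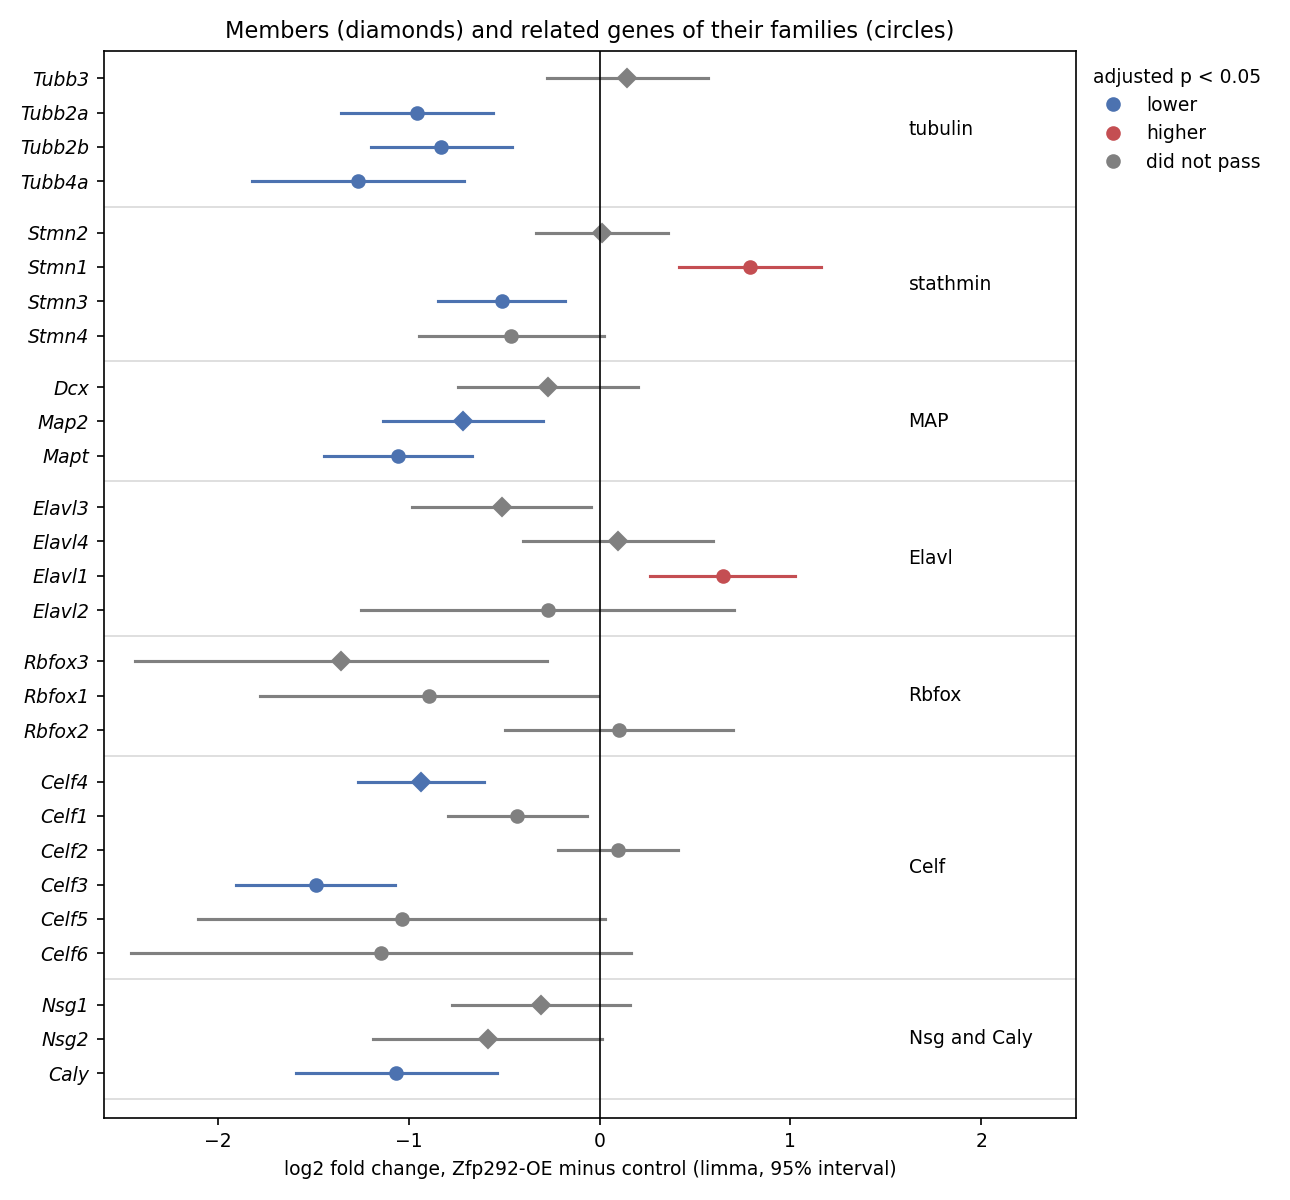
Log2 fold change (x axis, libraries labelled Zfp292-OE minus control, with 95% intervals from limma) of the 10 genes as diamonds and of related genes as circles, coloured by call. Celf4 (−0.94) is the lowest called member. Celf3 (−1.49), Tubb4a (−1.27), Caly (−1.06), Mapt (−1.06) and Tubb2a (−0.96), all called, lie lower still. Stmn1 (0.79) and Elavl1 (0.65) are the 2 called higher. Map1a, Map1b and Dclk1 are not drawn.

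Gene pairs were also set against each other within a library, which takes the library factor out. The pairs were chosen after the values had been seen, 8 in all. The two-sided p of the exact permutation test was taken as 2 times the one-sided p. So defined, it cannot fall below 0.2 for 2 libraries against 3. Celf4 over Tubb3 was 0.749 and 0.738 in control and 0.431, 0.297 and 0.337 in the labelled libraries. Map2 over Tubb3 was 0.786 and 0.854 in control and 0.728, 0.306 and 0.412 in the labelled libraries, so library 1 lay nearest to control. Elavl3 over Elavl4 was also lower in the labelled libraries, with 0.410 and 0.672 against 0.299, 0.386 and 0.353, and the gap between the groups was small. Tubb2a over Tubb3, Celf4 over Celf2, Stmn1 over Stmn2 and Elavl1 over Elavl4 also had groups apart, the last 2 upward. Stmn1 over Stmn2 was 7.83 and 9.59 in control and 15.4, 16.8 and 12.7 in the labelled libraries. Each of these 7 ratios had the smallest p possible (0.2, exact), and Nsg2 over Nsg1 overlapped (exact two-sided permutation p = 0.4).

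**Figure D3:**
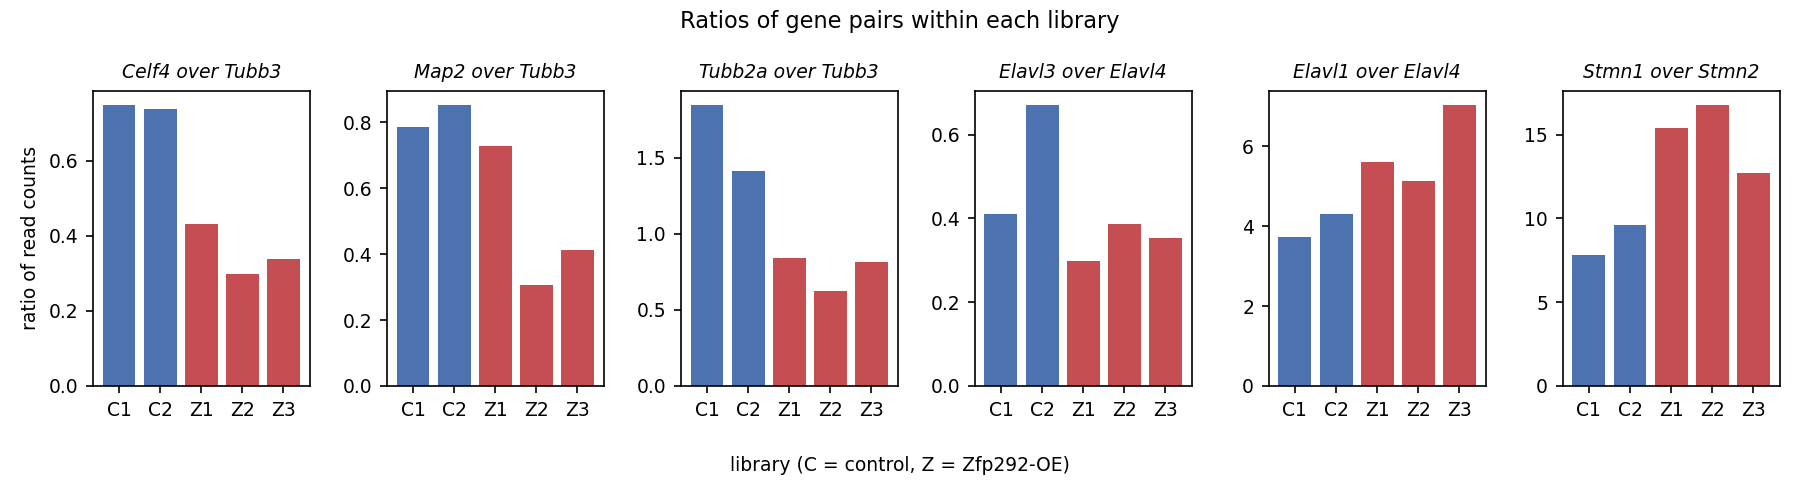
Ratio of normalised read counts of 6 gene pairs within each library (y axis, from 0), controls C1 and C2 in blue and libraries labelled Zfp292-OE Z1 to Z3 in red. Celf4 over Tubb3 is at least 0.738 in control and at most 0.431 in the labelled libraries, while Stmn1 over Stmn2 is 12.7 or more in the labelled libraries.

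The wider lists these genes belong to were read by counts, beside 17.4% called over all tested genes (7.38% lower and 10% higher). Of 25 further genes of the neuronal cytoskeleton, 11 fell, 1 rose and 13 did not pass, and the list's median was −0.56 on the log2 scale. The one that rose was Stmn1. Of 12 neuronal RNA-binding genes, 3 fell, 1 rose and 8 did not pass, with a median of −0.56. Celf3 and the splicing factors Srrm3 (−1.13) and Srrm4 (−0.54) fell, and Khdrbs3, a STAR-family RNA-binding protein, rose by 0.47. The last 3 were near the threshold (adjusted p = 0.035, 0.041 and 0.037 in limma). Srrm3 and Khdrbs3 lost their call without any 1 of the 5 libraries (up to 0.23 and 0.17), and Srrm4 without either control or labelled library 1 or 2 (up to 0.22). Khdrbs3 also missed the threshold in edgeR (0.051) and under equal library totals (0.20). Ptbp2, the neuronal paralog of the splicing repressor Ptbp1, had 0.24 (−0.06 under quantile normalization) and Ptbp1 0.24, and neither passed.

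Of 18 broadly expressed or progenitor RNA-binding genes, 0 fell, 3 rose and 15 did not pass, with a median of 0.23. That called share is near the 17.4% of all tested genes. Mbnl3, a muscleblind splicing factor, rose 4.06-fold, with a control mean of 273 ± 120 (SD, n = 2) and a labelled mean of 1108 ± 146 (SD, n = 3), and Igf2bp2, which binds and stabilises messages in dividing cells, rose 2.77-fold. Elavl1 was the third. edgeR called 0 lower and 2 higher in this list.

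Of 13 genes of neuronal endosomes and dense-core granules, 7 fell, 0 rose and 6 did not pass, with a median of −0.92, and all 13 values were negative. Rab3a, the small GTPase of synaptic vesicles, fell by 0.95 on the log2 scale (adjusted p = 0.0055 in limma), the vesicle protein Syt4 by 1.03 and Pcsk1n, an inhibitor of prohormone processing, by 1.23. Pcsk1n lost its call when either control was left out, and without labelled library 1 (0.053). The count of 7 was 11 under equal library totals and in DESeq2, and 4 without labelled library 1.

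Of 11 genes of the REST repressor complex, 2 rose (Hdac1 by 0.70 and Hdac2 by 0.97), 0 fell and 9 did not pass, a called share near the 17.4% of all tested genes. The balance turned with the scaling, with 1 higher and 2 lower under equal library totals, 2 higher and 1 lower in DESeq2, and 1 higher and 0 lower in edgeR. Rest itself, chosen for mention after its values were seen, had −0.14 and overlapping groups. Rcor1 (−0.48, adjusted p = 0.11 in limma) and Rcor2 (−0.79, adjusted p = 0.082 in limma) were lower but did not pass. Of the 11 values, 5 were negative and 6 positive. Hdac1 lost its call without any 1 of the 5 libraries (0.057 to 0.19). Of 12 factors of neuronal differentiation, 3 rose, 2 fell and 7 did not pass. Sox11, a SoxC factor of young neurons, rose by 0.99 on the log2 scale and Atoh7, the factor of early retinal neurons, by 2.80. Insm1 (−0.87) and Myt1 (−0.63, also outside the rule for named genes), zinc finger factors of newborn neurons, fell. Insm1 lost its call without labelled library 2 (0.067) or 3 (0.064). Leaving out either control left limma with 1 called gene in the whole table and 0 in each of these lists.

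**Figure D4:**
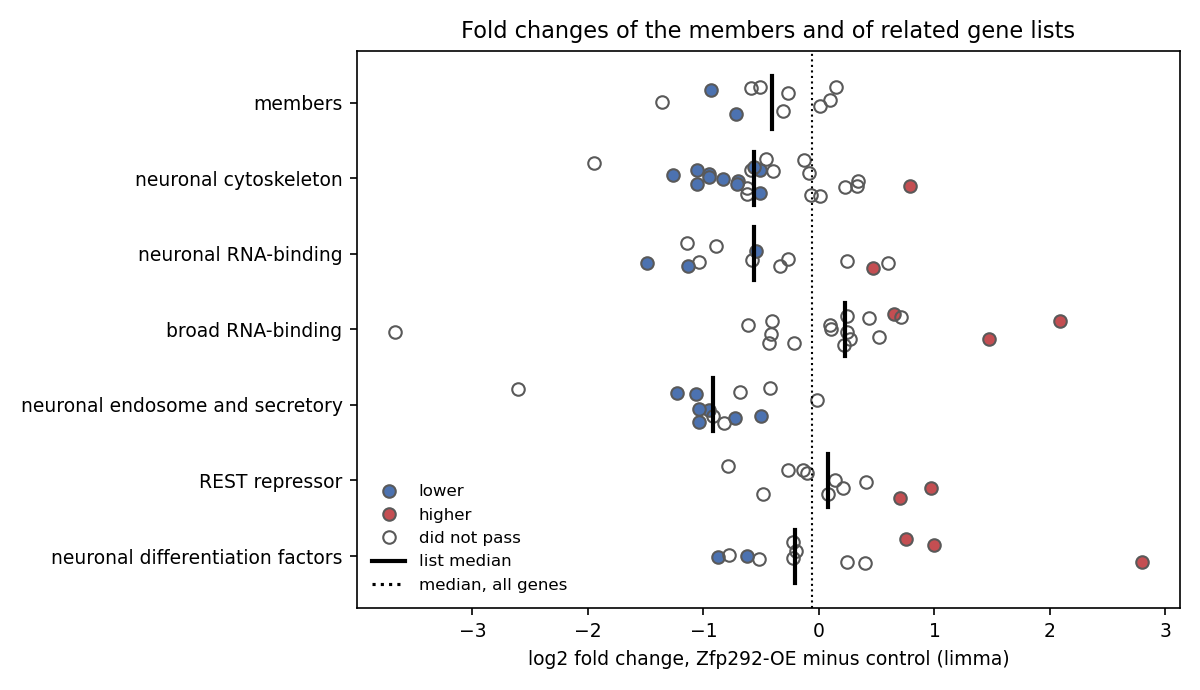
Log2 fold change (x axis, limma, libraries labelled Zfp292-OE minus control) of each gene in the 10-gene group and in 6 related lists (rows), filled where called. Bars mark list medians and the dotted line the median of all tested genes (−0.06), and the endosome and secretory list has the lowest median (−0.92).

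Markers of the cell classes that these libraries may hold moved at the same time. All 9 rod markers fell, with a summed level of 587332 to 709823 in control and 152114 to 168411 in the labelled libraries, and none was at 0. All 8 proliferation markers rose, with sums of 42281 to 45045 and 150160 to 290974. Of 8 progenitor markers 5 rose and 1 fell, with sums of 138714 to 161592 and 226459 to 272531. Of 8 bipolar markers 6 fell and Grm6, Vsx1 and Bhlhe23 each reached 0 in a labelled library, although the summed level (128469 to 174223 and 121612 to 207826) overlapped and was mostly Otx2. Without Otx2 the other 7 summed to 17607 to 17894 in control and 4043 to 5036 in the labelled libraries. Amacrine cells, which express many of the 10 genes, gave 1 higher and 1 lower of 9 markers, and sums of 31937 to 35040 against 20022 to 33555 that overlapped through labelled library 2. The marker that fell was Gad1 (−1.48, adjusted p = 0.011 in limma). The one that rose was Ptf1a (2.10, adjusted p = 0.022 in limma), and both are outside the rule for named genes. Tfap2b had −0.36 and Gad2 0.48 in that class, and neither passed. Of 9 ganglion cell markers 1 fell, the shared bipolar and ganglion gene Isl1 (−2.75), with sums of 15820 to 16360 and 6632 to 13372. Those sums rested on Isl1: the other 8 markers summed to 4305 and 5455 in control and 9853, 4620 and 11343 in the labelled libraries, which overlap, and 5 of the 9 had a positive log2 fold change. Pou4f2 was at 0 in control library 2 and Pou4f3 in labelled library 2. Of 5 horizontal cell markers 1 fell, Prox1 (−0.88), with sums of 20139 to 24220 and 12318 to 15122. Without Prox1 the sums overlapped, at 5043 to 5456 and 2964 to 5708. Of 8 cone markers 3 fell, with sums of 110138 to 117315 and 59177 to 137033. The part of these cell classes in the changes of the 10 genes was not tested.

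Among glia and cells from outside the neural retina, the Müller glia, astrocyte and pericyte lists held several calls. Of 8 Müller glia markers 4 fell and 1 rose, with sums of 743488 to 860703 in control and 376811 to 489434 in the labelled libraries, and of 4 tested astrocyte markers 3 fell (13690 to 16709 and 6826 to 8241). The astrocyte sums were mostly Slc1a2, and without it were 814 to 1580 in control and 109 to 331 in the labelled libraries. Pericyte markers fell in 4 of 6 (1171 to 2958 and 189 to 388), with Acta2, Kcnj8, Rgs5 and Abcc9 each at 0 in a labelled library. None of 8 microglial markers passed in limma (2415 to 8007 and 330 to 3155, with Csf1r, Ptprc and Tmem119 at 0 in library 3). Of 6 tested endothelial markers, 1 rose and 0 fell. It was the tight junction gene Cldn5, with 234 and 203 in control and 1995, 3227 and 1728 in the labelled libraries (log2 fold change 3.35, adjusted p = 0.00044 in limma). The endothelial sums overlapped (40404 to 48710 and 34980 to 44006) and were almost all Kdr, while Cdh5 was at or near 0 throughout. Without Kdr the sums were 342 to 484 in control and 1904 to 3355 in the labelled libraries. In the labelled libraries these sums were almost all Cldn5, and no other tested endothelial marker was called. None of 5 tested pigment epithelium markers and none of 3 erythrocyte genes passed in limma, and their sums overlapped (2773 to 3291 and 2072 to 2909, with Rpe65 at or near 0, then 126 to 499 and 149 to 1045). Rgr made up most of the pigment epithelium sums. Without Rgr those sums were 277 to 551 in control and 562 to 1117 in the labelled libraries, narrowly apart and upward. edgeR also called 0 in both lists, and DESeq2 called 1 pigment epithelium marker lower. The part of all these cells in the changes of the 10 genes was not tested.

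**Figure D5:**
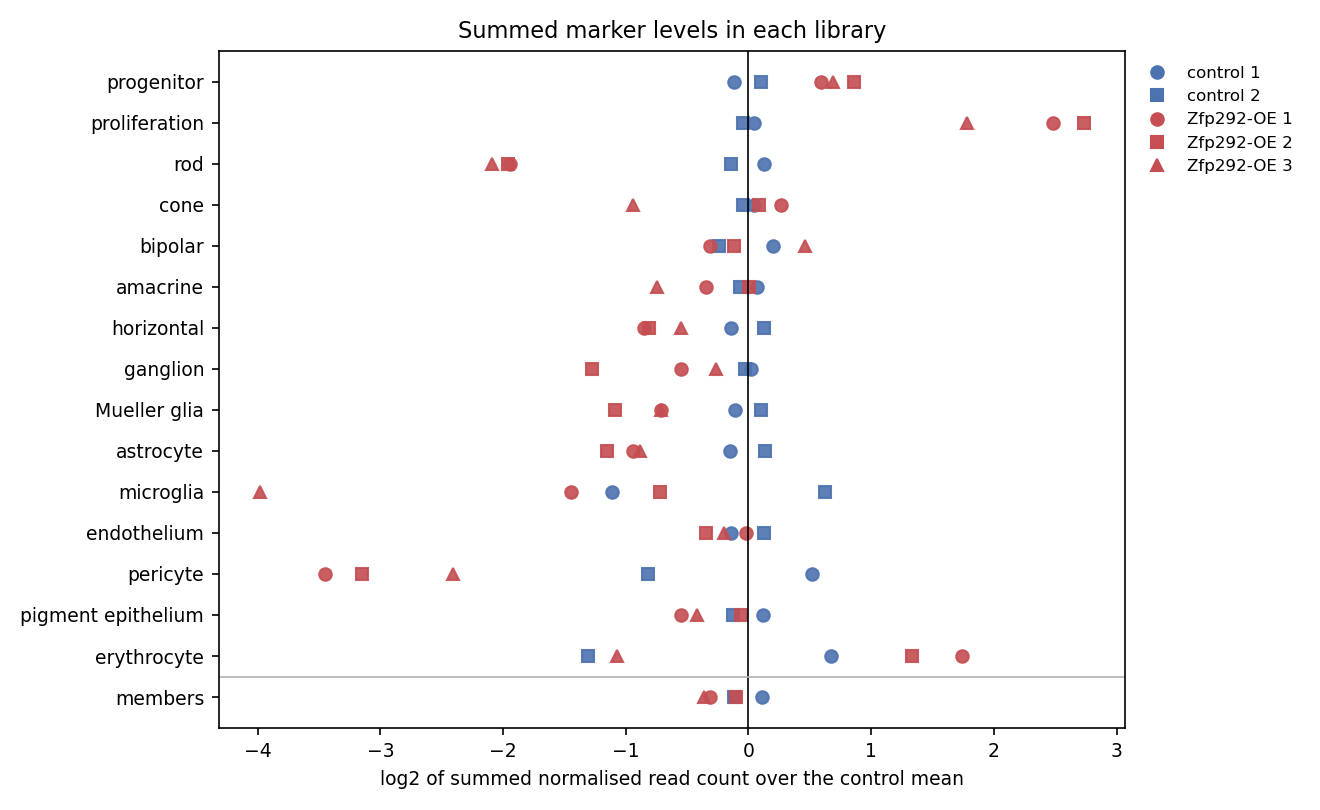
Summed normalised read count of each marker list (rows) in each library as log2 over the control mean (x axis), with the sum of the 10 genes in the last row. The 10 genes together span 70966 to 98338, a narrower range than the rod or proliferation markers, and labelled library 2 (84660) lies between the controls.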

How the data were processed

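The authors deposited 1 table of normalised signal per gene, which the values show to be read counts divided by 1 factor per library: dividing a library by the worth of 1 read gave whole reads for 100% of values (tolerance 1e-06). Per the submitters' processing notes the builds were GRCm38 and mm10. For aligner, counter, annotation, scaling and strandedness, each was not given in the sources used here. The table has 0 columns of other samples. Genes with a mean of at least 10 entered limma 3.58.1 in R 4.3.3, on log2(value + 1) with an intensity trend, with Benjamini-Hochberg adjustment over 16316 genes and a threshold of 0.05. edgeR 4.0.16 (quasi-likelihood) and DESeq2 1.42.0 ran on the recovered whole reads as alternatives, beside other pseudocounts, filters and scalings, a block for replicate number and fits without each library. Depth was at least 103096224 reads, with 15373 to 16275 genes at 10 reads or more per library. The 10 genes and all lists were chosen with earlier results of these data known. Named genes are Zfp292, the 10 genes, the 4 genes of each pathway list with the smallest p, close paralogs, and the 2 most abundant genes of each marker list, and those not described are not reported here. Hba-a2 and Hbb-bs were not matched and not analysed here. Coordinates are RefSeq GRCm38.p6 gene spans. On data simulated for 16316 genes with 200 changed, in 5 datasets, limma called 34% of genes changed 2-fold and 60.8% of those changed 4-fold. Plots used Python 3.11.15.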

Additional observations from a re-analysis of the deposited data

How the results depend on the processing

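The count of 2 members called lower was 1 with a replicate block and 0 to 2 with 1 library left out, and the count of all genes called, 2836, was 1 to 2352 with 1 library left out. DESeq2 called 4147 genes and edgeR 2621. The count of members called lower was 3 in DESeq2, 3 under equal library totals and 2 in edgeR. Replicate numbers 1 and 2 occur in both groups, and same-numbered libraries did not deviate together (r of −0.039 and −0.027 across genes). The 2 controls deviate in mirror image, so both values rest on the same control difference. They cannot tell whether same-numbered libraries shared animals or a preparation. The block leaves labelled library 3 alone in its block, out of the comparison. It gave Map2 −0.64 (adjusted p = 0.055 in limma). Signs that turned, all of values that had not passed, were as follows, with Map1a, Map1b and Dclk1 not followed here. Under equal library totals Zfp292 had −0.17, Tubb3 −0.07, Stmn2 −0.20, Elavl4 −0.12, Rbfox2 −0.11, Celf2 −0.12 and Otx2 −0.05. Under quantile normalization Zfp292 had −0.21, Tubb3 −0.15, Stmn2 −0.25, Celf2 −0.22, Ptbp2 −0.06 and Otx2 −0.08. Stmn2 had −0.02 under TMM scaling, −0.03 in edgeR and 0.00 (below 0) in DESeq2, and with the block Zfp292 had −0.01 and Otx2 −0.07. With 1 library left out, values ran from −0.03 to 0.12 for Zfp292, −0.02 to 0.31 for Tubb3, −0.18 to 0.21 for Stmn2, −0.27 to 0.46 for Elavl4, −1.01 to 0.47 for Elavl2, −0.37 to 0.57 for Rbfox2 and −0.08 to 0.41 for Otx2. The cause was not tested. Of 34 named genes called, 320 of 340 fits under other settings kept the call, as did 80 of 170 with 1 library left out. With 2 controls, no call of the 10 genes held without either of them. In the simulation limma recovered 34% of 2-fold changes. There 200 of 16316 genes were changed, while 2836 were called in the data, so that share need not hold for this series.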
